A study of Mus musculus with 6 samples.

Results

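The genes described here are the ligands, receptors and SMAD proteins of BMP and TGF-beta signalling together with the 4 Id genes, 42 genes in all of the 15964 that the 3 chips name by a single symbol. They were chosen by symbol: the numbered Bmp, Gdf, Tgfb and Smad genes, every symbol that starts with Tgfbr and a digit, Bmpr or Acvr, and Id1 to Id4. RNA labelled as coming from spermatogonia, the dividing germ cells at the base of the seminiferous tubule, was taken from mice aged 1 week on a mixed 129sv and C57Bl/6 background. The wild-type group was compared with a group labelled as a knock-out of Zfp145, now named Zbtb16, which encodes the transcriptional repressor PLZF. The labels give neither the deleted part of the gene nor the number of animals pooled. Each genotype was hybridised once to each of 3 Affymetrix chips, U74Av2, U74Bv2 and U74Cv2, so there are 6 arrays and no replicates. No p-value can be given, and no difference below has a replicate check.

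Ligands of this family are secreted dimers that bring together a type II and a type I receptor, both serine/threonine kinases. The type II receptor activates the type I receptor, which phosphorylates a receptor-regulated SMAD. Smad1, Smad5 and Smad9 carry BMP signals, and Smad2 and Smad3 carry TGF-beta and activin signals. Each joins the common partner Smad4 and enters the nucleus, while Smad6 and Smad7 are inhibitory. The Id genes are well known targets of BMP signalling and encode helix-loop-helix proteins that block other transcription factors by dimerising with them. In the testis, members of the family are known from Sertoli cells, germ cells, Leydig cells and macrophages alike, and Id4 is known as a marker of spermatogonial stem cells.

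Intensities are given as deposited, on a linear scale. For the ratio of null to wild type, the null array was first rescaled by a shift of 0.00 to 0.02 on the log2 scale. Signal below the 40th percentile of a chip was raised to that floor, which was 98.3 for U74Av2, 165 for U74Bv2 and 124 for U74Cv2. A ratio with 1 array at the floor is a bound, and a gene at the floor on both arrays has no ratio. Of the 42 genes, 32 lay above the floor on at least 1 array and 3 of those give bounds. The 42 genes have 86 probe sets, of which 52 exceeded the floor with at least 1 genotype. The other 34 were at the floor on both arrays. Some of these belong to genes measured by another probe set, and not all are listed below. Each gene is represented by its brightest probe set, the one with the highest rank on its chip. Intensities of different probe sets are not compared as amounts of transcript, since probes differ in efficiency. Sums over marker lists, given below, are weighted towards the probe sets with the strongest signal. The only repeated measure is that of several probe sets for the same gene on the same chip. The spread of their log2 ratios, stated here as an SD, was smaller at higher level: on U74Av2 it was 0.35 for dim, 0.27 for middle and 0.15 for bright probe sets. The same order gave 0.35, 0.34 and 0.25 for U74Bv2 and 0.55, 0.48 and 0.31 for U74Cv2. It does not cover the spread between animals.

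The targeted gene, Zbtb16, read 770.2 on the wild-type array and 158.1 on the null one on U74Av2, and 1156.8 and 510.8 on U74Cv2. Both were lower in the null array, with log2 ratios of -2.29 and -1.20. Transcripts of other cell types were measured beside those of germ cells. All 6 germ cell markers chosen, Dazl and Ddx4 among them, were above the floor, but so were all 10 Sertoli cell markers, such as Clu and Wt1, and all 6 macrophage markers. Of the macrophage markers, Adgre1 was above it only on the wild-type array. Among all measured probe sets, 0.908% on U74Av2, 1.82% on U74Bv2 and 11.1% on U74Cv2 were at least 2-fold different between the genotypes.

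Of the 32 measured genes 1 passed 2-fold. Bmpr1b, a type I BMP receptor, was higher in the null by a factor of at least 3.07, and no gene of the 42 was 2-fold lower. Of all 12431 measured genes 1.42% were at least 2-fold higher and 1.64% at least 2-fold lower, so 1 of 32 is near the background. The median log2 ratio was 0.09 over the 32 measured genes and -0.01 over all genes. By class it was 0.14 for 9 ligands, 0.05 for 11 receptors, 0.32 for 7 SMADs and -0.29 for 4 Id genes. All 7 measured SMADs had ratios above 0 and all 4 Id genes ratios below 0, where 48.5% of all measured genes were above 0 and 51.5% below. Ratios exceeded the spread of their chip and level in 17 of the 32 genes, 12 higher and 5 lower in the null array. The same held for 35.9% of all genes.

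**Figure D1:**
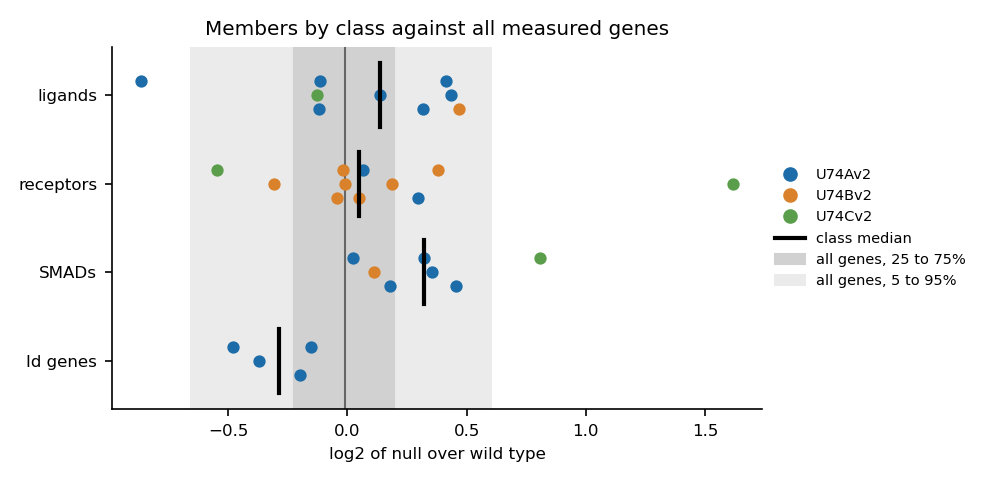
Log2 ratio of null over wild type (x axis) for the brightest probe set of each measured gene, 1 point a gene, coloured by chip, with the class median as a black bar and the grey bands and line giving the quantiles and median of 12431 genes. The 7 SMADs lie between 0.03 and 0.81 and the 4 Id genes between -0.48 and -0.15, while ligands and receptors lie on both sides of 0.

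TGF-beta ligands were all measured on U74Av2. On this chip 0.352% of measured genes were at least 2-fold higher and 0.469% at least 2-fold lower, and 0 of its 22 measured members passed 2-fold in either direction. Tgfb1, the most widely expressed of them and an abundant product of macrophages and platelets, read 255.3 on the wild-type array and 342 on the null one, a ratio of 0.41 against a spread of 0.35. Tgfb2 read 61.4, below the floor, and 108.7, just above it, a bound of 0.14. Tgfb3 read 722.5 and 671.7, a ratio of -0.11 inside the spread of 0.27. So 1 of the 3 exceeded the spread, where 35.9% of all measured genes did, and the class has no common sign.

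Of 9 BMP ligands 3 were measured. Bmp4, which acts on spermatogonia in culture, read 303 with wild-type RNA and 280.4 with null RNA, a ratio of -0.12 inside the spread of 0.35. Its probe set on U74Bv2 was at the floor in the null, at 177.8 and 40, a bound of -0.11. Bmp6 read 100.4 and 136.7, a ratio of 0.44 against 0.35, with the wild type barely above the floor. Bmp7 read 396.3 and 496.6 on U74Av2, a ratio of 0.32 against 0.27, but 425.8 and 384 on U74Bv2, a ratio of -0.15. Bmp2, Bmp5, Bmp8a, Bmp8b, Bmp10 and Bmp15 were at the floor on both arrays in all their probe sets. Bmp8a and Bmp8b, ligands known from germ cells, read 65.8 and 14.9 in the wild type and 59.7 and 20.1 in the null. Signal this low gives no ratio and does not show that a transcript is absent.

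Gdf9, a ligand best known from the oocyte and also made by germ cells of the testis, had the ratio farthest from 0 among the genes above the floor on both arrays. It read 307 on the wild-type array and 169.6 on the null one on U74Av2, a log2 ratio of -0.86, or 1.82-fold lower, against a spread of 0.35. This placed it at the 1.2th percentile of the chip. Its ratio rests on 1 probe set, and a floor raised to the 60th percentile left -0.052, a bound. Gdf11, a relative of myostatin, read 121.3, below the floor, and 229.3 on U74Bv2, a bound of 0.47. Its probe set on U74Av2 was at the floor on both arrays, at 32.7 and 16. Gdf3, known from pluripotent cells, read 504.5 and 468.7 on U74Cv2, a ratio of -0.13 inside the spread of 0.48. The other probe sets of Gdf3, on U74Av2, were at the floor on both arrays, at 25.5 and 25.7 and at 18.3 and 17.8. Gdf5 and Gdf10 were at the floor. A further probe set that the annotation pairs with both Gdf1 and Cers1 read 85.2 and 57.4, below the floor, and was assigned to neither.

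Bmp1 is named for the family but encodes a metalloproteinase that cleaves procollagen and the BMP antagonist chordin. Its brightest probe set read 268.5 with wild-type RNA and 330 with null RNA, a ratio of 0.29 inside the spread of 0.35. The other 2 gave -0.36 and 0.06, and their mean with the first was -0.0023. Of the 32 measured genes 12 had more than 1 measured probe set. In 4 of them, Smad1, Smad2, Smad5 and Acvr2a, every probe set was above 0, and in 3, Bmpr2, Acvrl1 and Bmp4, every probe set was below. In the other 5 the signs were mixed. The remaining 20 genes, the Id genes and Gdf9 among them, rest on a single measured probe set.

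Among the type I receptors the largest values were those of the BMP receptors Bmpr1b and Bmpr1a. Bmpr1b read 97.9 in the wild type, below the floor, and 386.5 in the null on U74Cv2. Its bound is 1.62 on the log2 scale, with a spread of 0.55 at this level. On U74Av2 its other probe set was at the floor on both arrays, at 19.8 and 32. The difference thus rests on 1 dim probe set of U74Cv2, where 4.79% of measured genes were at least 2-fold higher and 4.86% at least 2-fold lower. A floor raised to the 60th percentile left a bound of 0.30, and without U74Cv2 no gene of the 42 was 2-fold different.

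Bmpr1a, the BMP receptor required for signalling by BMP2 and BMP4 in many tissues, has 5 measured probe sets. The brightest, on U74Bv2, read 941.7 with wild-type RNA and 1228.7 with null RNA, a ratio of 0.38 against a spread of 0.25. Others on that chip gave 0.16 and -0.07, and the one on U74Cv2 gave 0.19. On U74Av2 its probe set read 291.3 and 523.2, a ratio of 0.84 and 1.79-fold, at the 99.1th percentile of that chip. So 4 of its 5 probe sets were above 0, but the size ran from -0.07 to 0.84. The BMP type II receptor, Bmpr2, went the other way in each of its 3 measured probe sets. It read 4709 and 3274.3 on U74Cv2, a ratio of -0.55 against a spread of 0.31. On U74Bv2 it read 2409.7 and 1925.6, a ratio of -0.33 against 0.25, and on U74Av2 166.1 and 138.9, a ratio of -0.27 inside 0.35. Bmpr1a and Bmpr2 are the genes of the 42 with measured probe sets on all 3 chips, and the brightest probe set on each chip was above 0 for Bmpr1a and below 0 for Bmpr2.

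Acvr1, a type I receptor for BMPs and also known as ALK2, read 395.1 on the wild-type array and 451.3 on the null one, a ratio of 0.19 inside the spread of 0.34. Acvrl1, the endothelial type I receptor ALK1, read 494.4 and 480.7, a ratio of -0.05. Its 3 probe sets on U74Av2, some of which share a transcript record, ranged from -0.26 to -0.07, all below 0 and all inside the spread. The activin type I receptor Acvr1b read 2597.3 and 2107.8, a ratio of -0.31 against a spread of 0.25. The probe sets of Acvr1 and Acvr1b on U74Av2 were at the floor on both arrays, at 46.2 and 25.2 and at 86.9 and 48. Acvr1c, the nodal receptor ALK7, was at the floor, at 22.5 and 4.1.

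Both activin type II receptors were above 0. Acvr2a read 193.5 with wild-type RNA and 203.8 with null RNA, a ratio of 0.07, with 0.46 in a dimmer probe set. Acvr2b read 1408.5 and 1742.1, a ratio of 0.30 against a spread of 0.15. The receptors of TGF-beta itself hardly differed between the arrays by their brightest probe sets, all on U74Bv2. Tgfbr1 read 2396 and 2386.3, a ratio of -0.01 that turned to 0.01 after quantile normalization and 0.02 after loess. Tgfbr2 read 719.8 and 746.8, a ratio of 0.05, and the co-receptor betaglycan, Tgfbr3, 1428.6 and 1414.9, a ratio of -0.02. Other probe sets of Tgfbr3 gave 0.42 on U74Bv2 and -0.05 on U74Cv2. On U74Av2 the probe sets of these receptors were at the floor on both arrays. They read 8.4 and 23.5 for Tgfbr1, 26.4 and 4.2 for Tgfbr2 and 82.8 and 64.5 for Tgfbr3. On U74Bv2, which measured most of the receptors, 0.717% of genes were at least 2-fold higher and 0.878% at least 2-fold lower, and 0 of 14 measured members were either.

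**Figure D2:**
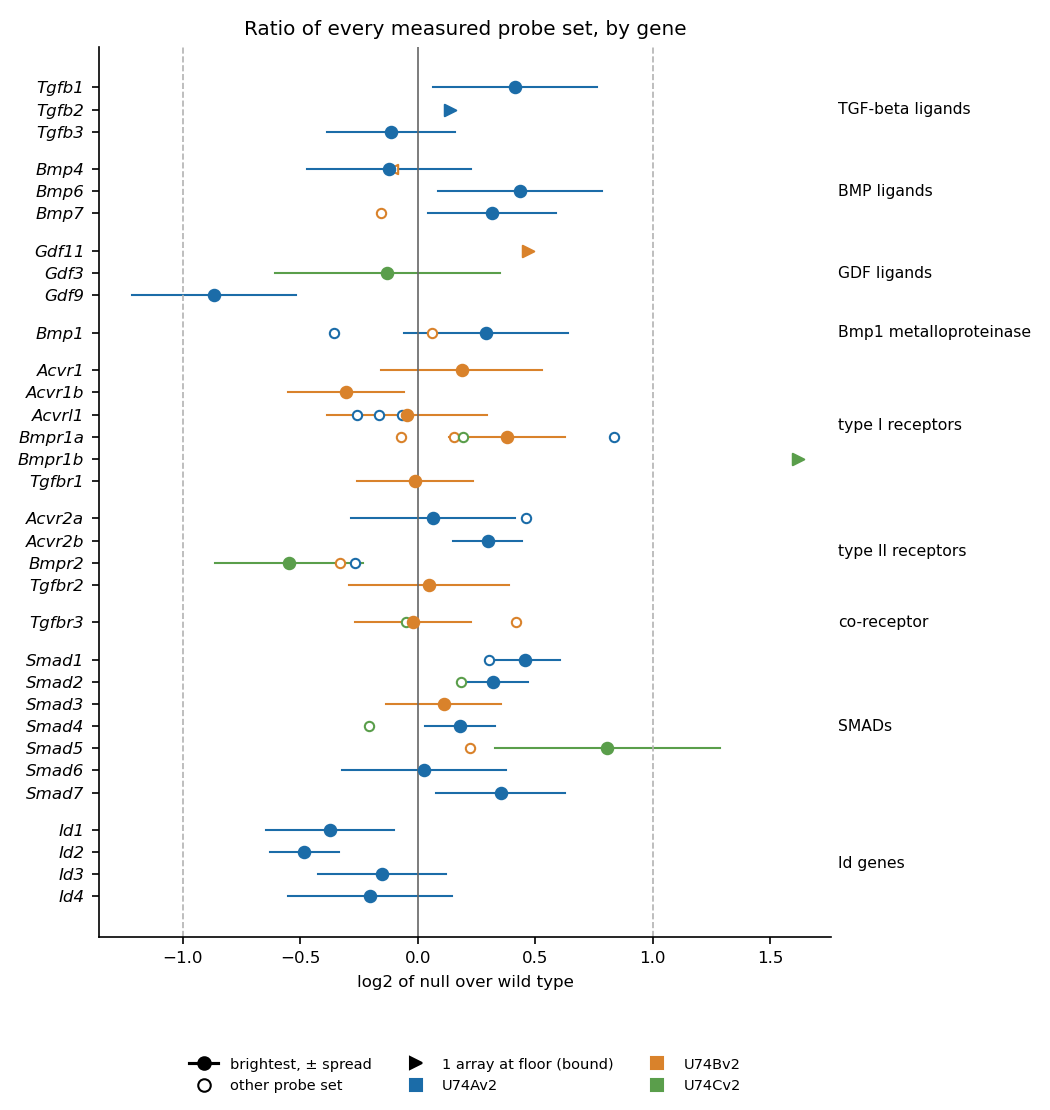
Log2 ratio of null over wild type (x axis) of all 52 measured probe sets by gene, with the brightest filled and drawn with a bar of 1 spread to each side, others open, bounds as triangles, and dashed lines at 2-fold. The 3 probe sets of Bmpr2 lie between -0.55 and -0.27, those of Bmpr1a between -0.07 and 0.84, and Bmpr1b is the only gene beyond 2-fold.

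SMADs carry the signal from the receptors, and all 7 that were measured were higher in the null array by their brightest probe set. Smad1, the BMP effector, read 960 on the wild-type array and 1326.2 on the null one on U74Av2, a log2 ratio of 0.46 against a spread of 0.15. Another probe set made from the same transcript record gave 0.30. Smad5, the other measured BMP effector, read 528.8 and 940.4 on U74Cv2, a ratio of 0.81 against a spread of 0.48. This placed it at the 91.5th percentile of that chip. On U74Bv2 its probe set read 418.6 and 489.9, a ratio of 0.22, and the one on U74Av2 was at the floor. Both effectors were thus higher in the null array in every probe set measured, 2 for each gene, although for Smad5 the value on U74Bv2 lay inside the spread of 0.34. Smad9, the remaining BMP effector, was at the floor on both arrays, at 78.6 and 33.4.

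The TGF-beta and activin effectors lay on the same side with smaller ratios. Smad2 read 1578.5 with wild-type RNA and 1983.7 with null RNA on U74Av2, a ratio of 0.32 against a spread of 0.15, and gave 0.18 on U74Cv2. Smad3 read 1635 and 1770.9 on U74Bv2, a ratio of 0.11, inside the spread of 0.25. Its probe set on U74Av2 was at the floor on both arrays, at 11.8 and 31.5. The common partner Smad4 read 1168.8 and 1332.2 on U74Av2, a ratio of 0.18 against a spread of 0.15. Its probe set on U74Cv2 went the other way, at 909.3 and 800.8, a ratio of -0.21 inside a spread of 0.48. The sign for Smad4 therefore differed between the chips, and the mean of its 2 probe sets was -0.01.

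Of the inhibitory SMADs, Smad7, which is induced by TGF-beta signalling and degrades its receptors, read 340.7 on the wild-type array and 437.7 on the null one, a ratio of 0.35 against a spread of 0.27. Smad6, which acts mainly on BMP signals, read 160 and 163.8, a ratio of 0.03 inside a spread of 0.35. Over the 7 measured SMADs 5 exceeded the spread, where 35.9% of all measured genes did. The 75th percentile of all measured genes on U74Av2 was 0.18, above the spread of 0.15 for its bright probe sets. On U74Av2 alone all 5 measured SMADs were above 0, with a median of 0.32, on U74Bv2 both measured SMADs, with 0.17, and on U74Cv2 2 of 3, with 0.18. Without U74Cv2 the median over 7 SMADs was 0.22 and all 7 were above 0.

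The Id genes, the targets, lay on the other side of 0 from the SMADs. All 4 were measured on U74Av2, each by 1 probe set above the floor on both arrays. Id1 read 451.7 with wild-type RNA and 350.9 with null RNA, a log2 ratio of -0.37. Id2, whose product acts in many lineages as a brake on differentiation, read 1419.5 and 1022.8, a ratio of -0.48. These exceed the spread at their levels, 0.27 and 0.15. Id3 read 535.6 and 485.3, a ratio of -0.15 against a spread of 0.27. The stem cell marker Id4 read 139.6 and 122.2, a ratio of -0.20 against a spread of 0.35. All 4 were therefore lower in the null array, by 1.11-fold to 1.40-fold, and in 2 of them by more than the spread. Over all measured genes 35.9% lay beyond the spread in either direction. The 4 values come from the same pair of arrays and are not repeats of each other. Ranked among the measured probe sets of the chip from the lowest ratio, Id2 stood at the 6.7th percentile, Id1 at the 11.1th, Id4 at the 24.8th and Id3 at the 30.7th.

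Promoters of Id genes are shown because all 4 lay on the same side of 0 and SMADs are known to act on them directly. Those of Id2, Id3 and Id4 were matched in the promoter table used here, and that of Id1 was not. They are 300 bases each, from 250 before the transcription start to 50 after it, from RefSeq on GRCm38.p6. The arrays name no genome build. Of the 42 genes, 29 were matched. Capitals mark 2 short motifs that SMAD complexes are known to bind, GGCGCC and CAGAC, searched on both strands. Id2 is at chr12:25096043-25096342 on the minus strand, Id3 at chr4:136143572-136143871 on the plus strand and Id4 at chr13:48260866-48261165 on the plus strand.
Id2: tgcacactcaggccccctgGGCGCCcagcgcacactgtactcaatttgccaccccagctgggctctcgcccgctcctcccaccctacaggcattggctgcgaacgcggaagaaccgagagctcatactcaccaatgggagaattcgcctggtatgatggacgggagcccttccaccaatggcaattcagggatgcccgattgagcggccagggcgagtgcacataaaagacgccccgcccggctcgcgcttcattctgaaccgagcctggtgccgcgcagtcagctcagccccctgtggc
Id3: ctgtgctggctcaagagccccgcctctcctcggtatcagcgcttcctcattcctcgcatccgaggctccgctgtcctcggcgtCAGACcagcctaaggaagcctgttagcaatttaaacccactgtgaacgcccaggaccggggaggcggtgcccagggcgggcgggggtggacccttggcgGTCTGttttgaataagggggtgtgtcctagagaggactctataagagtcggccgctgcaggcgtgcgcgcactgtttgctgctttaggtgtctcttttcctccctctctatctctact
Id4: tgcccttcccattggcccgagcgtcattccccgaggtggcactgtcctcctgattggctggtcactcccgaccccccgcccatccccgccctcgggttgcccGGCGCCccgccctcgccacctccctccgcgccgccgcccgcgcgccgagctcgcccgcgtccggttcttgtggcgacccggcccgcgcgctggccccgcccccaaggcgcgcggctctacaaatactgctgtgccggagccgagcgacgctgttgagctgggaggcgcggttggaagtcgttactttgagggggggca

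Id2 and Id4 each held GGCGCC once, starting at position -231 in Id2 and -148 in Id4 relative to the transcription start. Id3 held CAGAC at -167 and its reverse complement at -68. Of all 32851 promoters of this length in the table, 11.9% held GGCGCC and 49.6% held CAGAC. Of the 35 promoters of the 29 genes, 10 held GGCGCC (28.6%) and 14 held CAGAC (40%). Overlapping windows of Smad5 count the same GGCGCC site more than once. GGCGCC holds only G and C, which make up 60% to 73.3% of the 3 printed promoters. The G and C content of the other promoters was not compared. Besides Id2 and Id4, genes with GGCGCC included the receptors Bmpr1a, Bmpr2, Acvr1b and Tgfbr1, whose ratios had no common direction, and Smad5. The 2 motifs share no overlapping letters in the 3 promoters printed. A match describes the letters of this window, and whether a SMAD binds there was not measured.

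**Figure D3:**
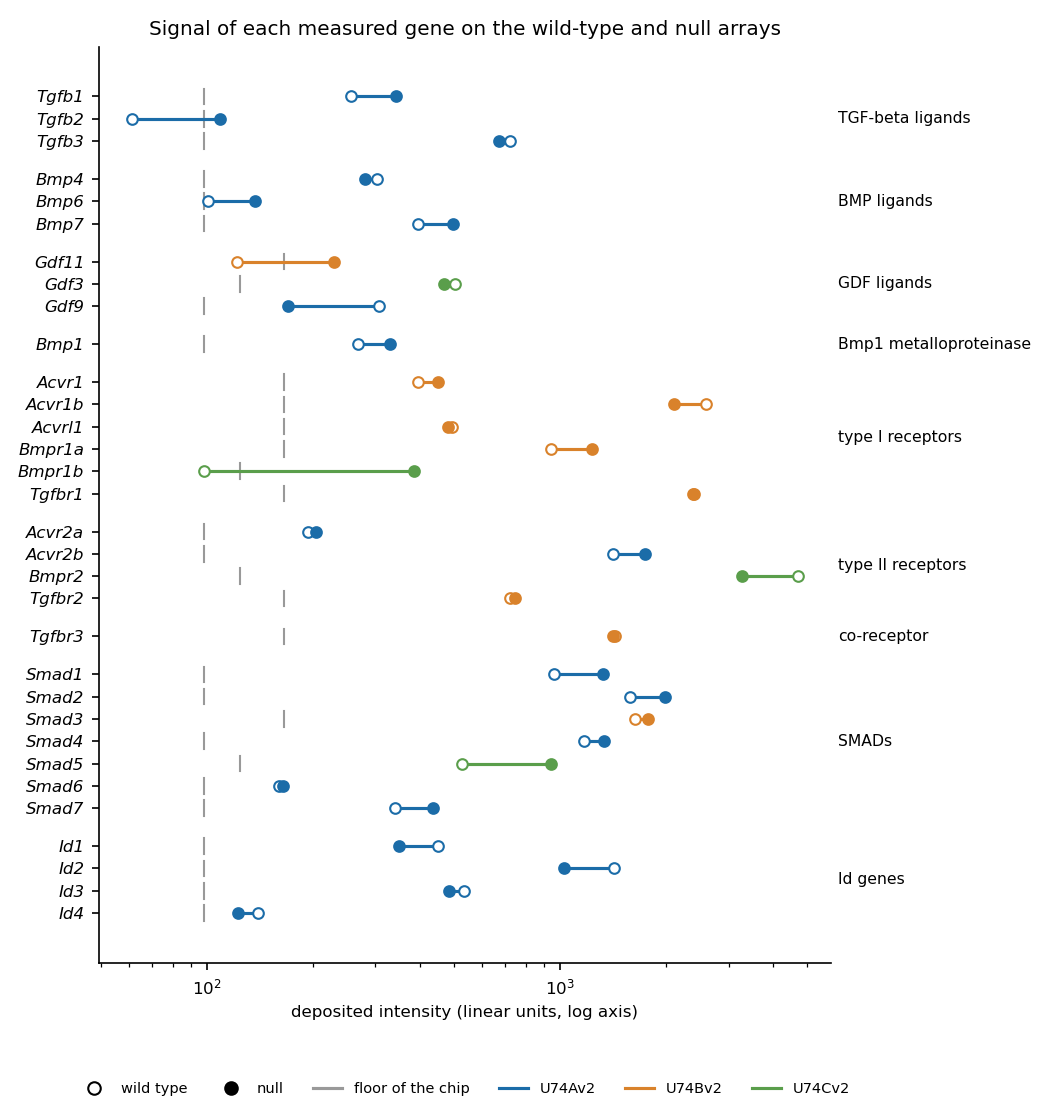
Deposited intensity (x axis, log scale) of the brightest probe set of each of the 32 measured genes on the wild-type array (open) and the null array (filled), coloured by chip, with the floor of the chip as a grey tick. Only the 2 points of a row can be compared: filled points lie to the right of open ones in all 7 SMAD rows and to the left in all 4 Id rows.

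Other genes of the pathway were taken from a list of 67, of which 59 are on the chips and 48 were measured. By brightest probe sets none of the 48 was 2-fold different, where 1.42% of all measured genes were at least 2-fold higher and 1.64% lower. With shares this small, 0 of 48 is near the background. The median log2 ratio of the 48 was 0.03, with 26 above 0 and 22 below. The 15 measured extracellular antagonists and modulators had a median of -0.04. Among them Htra1, a serine protease that can bind TGF-beta ligands, read 13441.6 on the wild-type array and 13241.3 on the null one, and the proteoglycan decorin, Dcn, 4696.7 and 5213, ratios of -0.05 and 0.14. The BMP antagonist noggin, Nog, was at the floor in the null, at 117.5 and 25.1, a bound of -0.26, and Chrd and Grem1 were at the floor on both arrays. Inhibins, activins and further ligands had a median of -0.05 over 5 genes. Inha, the inhibin alpha subunit of Sertoli cells, read 4462.7 and 4165.1, and Lefty1, an antagonist of nodal, 3387.8 and 3759, ratios of -0.11 and 0.13. Other probe sets of Lefty1 gave -0.28 and -0.37.

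Amhr2, the receptor of the anti-Mullerian hormone and the brightest of 4 other measured receptors and membrane modulators, read 79118.6 with wild-type RNA and 59731.4 with null RNA on U74Cv2, a ratio of -0.43. Its other probe sets gave -0.05, 0.37 and -0.57. Bambi, a decoy receptor, read 1202.2 and 1150.8, a ratio of -0.07. The 15 intracellular modulators had a median of 0.08, with the receptor-binding immunophilin Fkbp1a at 0.03 and the ubiquitin ligase Stub1 at -0.22. The largest ratio among them was that of Smurf2, a ubiquitin ligase for SMADs and receptors, at -0.57, which was singled out after its values were seen. Its other 5 probe sets ran from -0.77 to 1.04.

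Transcripts known to respond to these signals, other than the Id genes, had a median of 0.28 over 9 measured genes, 7 above 0 and 2 below. Col1a1, a collagen chain raised by TGF-beta in fibroblasts, read 3075 on the wild-type array and 4733.2 on the null one, a ratio of 0.61 against a spread of 0.15, with 0.54 in another probe set. Atoh8, a transcription factor induced by BMP signals, read 1737.7 and 2648.9 on U74Cv2, a ratio of 0.58 against 0.31. Ccn2 stood at 0.41 and Tgfbi at 0.28, while Cdkn2b stood at -0.55 and Msx1 at -0.31. For Junb and Hey1, counted among the 7 by brightest probe sets at 0.10 and 0.35, another probe set gave -0.36 and -0.41, so their signs were mixed. Several of these genes are expressed in fibroblasts and peritubular cells, and their sources in this RNA were not separated.

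**Figure D4:**
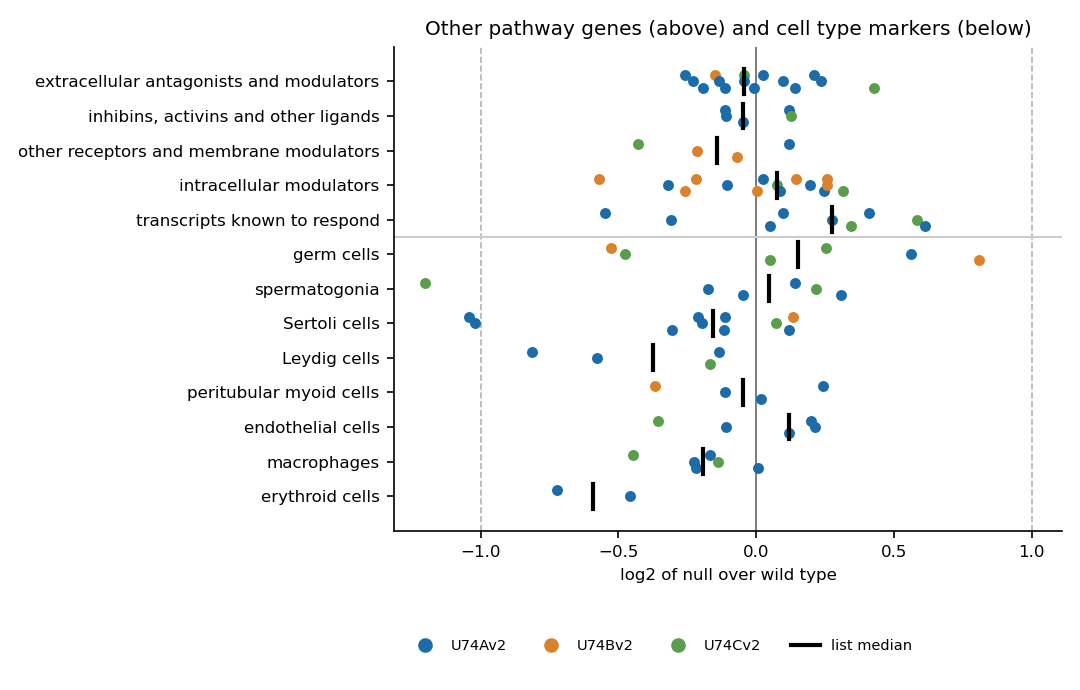
Log2 ratio of null over wild type (x axis) of other pathway genes, in 5 lists above the grey line, and of cell type markers, in 8 lists below it, 1 point a gene by its brightest probe set, coloured by chip, with list medians as black bars and dashed lines at 2-fold. No pathway gene passes 2-fold, and the Leydig, macrophage and erythroid markers lie mostly below 0.

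Marker lists of the cell types that the sample could hold were compared in the same way. In bulk RNA fewer cells of a type cannot be told apart from less RNA per cell. Summed over its markers, after scaling, the germ cell list read 28627 with wild-type RNA and 29547 with null RNA, with 4 of 6 ratios above 0. This sum is mostly Mov10l1. Of the 4, Dazl and Mov10l1 stood at 0.56 and 0.05, but another probe set of each gave -0.32 and -0.64. The Sertoli list read 40826 and 36327, with 7 of 10 below 0 and a median of -0.16, and its sum is mostly Clu and Aard. Its genes were not alike: Rhox5, a homeobox gene of Sertoli cells, read 1071.6 and 523.7, and Tsx 296.3 and 146.9, ratios of -1.04 and -1.02 and both past 2-fold. Wt1, Sox9 and Gata4, which encode transcription factors, stood at -0.12, 0.07 and 0.14. Leydig cell markers read 1728 and 1280, with 4 of 4 measured below 0 and a median of -0.37. Of the 4, Star at -0.17 and Cyp17a1 at -0.13 lay inside the spread, 0.55 and 0.27. Other probe sets of Star gave -0.17, -0.22 and 0.27. Macrophage markers read 19431 and 15164, with 5 of 6 below 0, of which Adgre1 is a bound. This sum is mostly Laptm5, at 13972.2 and 10423, a ratio of -0.45. Other probe sets of Laptm5 gave -0.01 and -0.19. Erythroid markers read 4559 and 2771, with both measured genes below 0. The peritubular list read 15452 and 12989, but 2 of its 4 measured ratios were above 0 and 2 below, with a median of -0.05. Its sum turns on the brightest gene, Mylk, at 10125.1 and 7879.2. Acta2, in the same list, stood at -0.11, but another probe set gave 0.67. The endothelial list read 2478 and 2485, with 3 of 5 ratios above 0. Spermatogonial markers read 11539 and 11510, with 3 of 6 ratios above 0 and 3 below. Those below include the targeted gene itself, Zbtb16, at -1.20. Insl3, Cnn1 and Tek were at the floor on both arrays. The Id genes were thus lower, and the SMADs higher, in null arrays in which Sertoli, Leydig and macrophage markers lay mostly below 0. The part of these cells in either result was not tested.

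**Figure D5:**
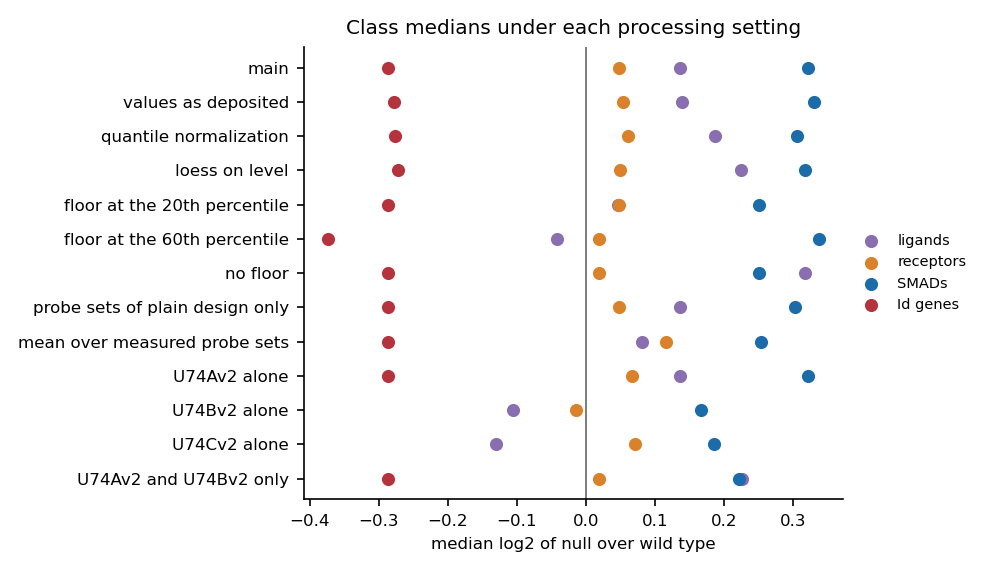
Median log2 ratio of null over wild type (x axis) of each class under the main processing and 12 other settings (rows). SMAD medians lie between 0.17 and 0.34 and Id medians between -0.37 and -0.27 in every setting that gave one, while the ligand medians lie on both sides of 0. Each Id gene has 1 probe set, on U74Av2. Lower floors and changes of probe sets or chips therefore could not move the Id median.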

How the data were processed

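Total RNA labelled as from spermatogonia of wild-type and Zfp145 knock-out mice was measured on 6 single-colour arrays, 1 of each genotype on each of 3 chips. The deposited values are intensities on a linear scale, 1 per probe set. How the authors derived these intensities was not given in the sources used here. Their mean without the lowest and highest 2% of values was 500.1 to 500.3 on every array, so arrays had been scaled before deposit. Groups came from the sample titles.

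Probe sets were named by GEO's platform annotation. All 42 symbols matched the RefSeq table of GRCm38.p6 by Entrez identifier. Control probe sets, 66 on every chip, were left out. Null values were divided by the median ratio of the probe sets ranked above the median level, then the floor and log2 were applied. A gene was taken as different at 2-fold. The spread is the median absolute difference between probe sets of a gene on a chip, scaled to an SD. No test was made, and the number of arrays limits the precision.

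All measured members are named with their brightest probe set. For the other pathway genes those past 2-fold, or else the 2 brightest of each list, are named, with others given after their values were seen. The members and lists were chosen with earlier results of these data known. Alternatives changed the scaling, the floor, the threshold, the probe sets and the chips. The work was done in Python 3.11.15 with pandas 2.3.3, numpy 2.4.6 and statsmodels 0.14.6 (loess), and was tested on simulated data.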

Additional observations from a re-analysis of the deposited data

How the results depend on the processing

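Of 86 values of class medians and counts under 14 other settings, 74 stayed within 1.5 times the main count or within the error of the median that the spread between probe sets gives. Some of the 74 were fixed in advance. Each Id gene has 1 probe set, on U74Av2, so lower floors and changes of probe sets or chips left the Id median at -0.29. The exceptions were the ligand median and the counts. The ligand median of 0.14 moved to -0.042 under a floor at the 60th percentile, 0.32 with no floor, -0.11 on U74Bv2 alone and -0.13 on U74Cv2 alone. The count of 1 member at least 2-fold higher in the null became 0 under that higher floor, 0 on U74Av2 alone, 0 on U74Bv2 alone and 0 without U74Cv2, a setting chosen after seeing the data. It was 3 of 42 with no floor (Bmpr1b, Bmp5 and Gdf5), where 5.19% of all genes passed, and 2 of 32 at a threshold of 1.5-fold (Bmpr1b and Smad5), where 5.34% passed. The count of 0 at least 2-fold lower was 2 with no floor (Acvr1c and Smad9), against 7.24% of all genes, and 1 at 1.5-fold (Gdf9), against 6.36%. These counts are near the background. All 4 genes other than Bmpr1b that no floor added lay under the floor on both arrays. Of 324 values of single genes 311 moved by less than the spread, and 13 moved by more, among them Bmpr1b, which lost its 2-fold difference at the higher floor (0.30). The sign turned in 7 of the 324, in Bmp1, Bmp7, Smad4, Tgfbr1 and Tgfbr3. In 3 of these the value also moved by more than the spread, namely Bmp7 on U74Bv2 alone (-0.15) and Smad4 on U74Cv2 alone (-0.21) and as a mean over probe sets (-0.013). With 1 array for each genotype and chip, a dim gene near the floor cannot be told from background.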
